A study of Drosophila melanogaster with 2 samples.

Results

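Aminoacyl-tRNA synthetases are the enzymes that join each amino acid to its transfer RNA, and without them no ribosome can read the genetic code. The posterior midgut of *Drosophila melanogaster* expressed 33 synthetase genes out of 13822 loci with a transcript in the deposited table. A locus was taken as a member when its deposited symbol began with Aats-, or when its current Release 6 name was a 3-letter amino acid code followed by RS or RS-m. The deposited symbol brought in 21 genes and the current name brought in 12. The 18 genes without the -m suffix are called cytosolic here and the 15 with it mitochondrial, so the class rests on the name and not on a measured location. In 5 genes an old Aats- symbol without the suffix now belongs to the mitochondrial enzyme (LeuRS-m, MetRS-m, PheRS-m, ProRS-m and SerRS-m).

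Poly(A) RNA came from posterior midguts of female wild-type Oregon R flies raised at 25 ºC, aged 45 days or 5 days. The 75 midguts dissected per condition were pooled at extraction, and 3 libraries named biological replicates were sequenced per age. How the pooled tissue was divided among the 3 libraries is not given in the sources used here, so p-values measure the spread between libraries. The read columns are named treatment 1 to 3 and control 1 to 3, with nothing in the labels or headers to match the names to the ages. Every comparison below is therefore given as treatment against control. Should control be the 5-day set, a gene described as higher in treatment would be higher at 45 days.

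As a rule each amino acid has its own synthetase, with exceptions named below. A cell needs charged tRNAs in the cytosol and again in its mitochondria, where a separate ribosome translates the few proteins encoded by mitochondrial DNA. All synthetases are encoded in the nucleus, and the mitochondrial enzymes are imported. In animals a group of the cytosolic enzymes is held together with small scaffold proteins in the multi-synthetase complex. The midgut epithelium makes large amounts of digestive enzymes, and its stem cells replace lost enterocytes throughout adult life.

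Total reads over genes were between 9581958 and 18001949 in the treatment libraries and between 12146646 and 16739553 in the control libraries. The edgeR quasi-likelihood test with TMM scaling covered 8137 genes, and all 33 synthetase genes passed its filter on low counts. Expression is given as TMM-scaled counts-per-million values (CPM). Gut cell markers differed between the sets. Their counts stand beside 25.0% of all tested genes called higher in treatment and 24.1% called lower. All 11 tested visceral muscle markers were lower in treatment, with summed levels of 942 to 945 CPM in treatment and 1987 to 2112 CPM in control. Of 8 stem cell and enteroblast markers, 6 were higher and none lower, at 214 to 223 CPM in treatment and 136 to 139 CPM in control. Of 9 enteroendocrine markers, 6 were lower and none higher, at 372 to 390 CPM in treatment and 519 to 554 CPM in control. Of 8 enterocyte markers, 2 were higher and 5 lower, shares of 25.0% and 62.5%. They summed to 8087 to 8646 CPM in treatment and 13460 to 13880 CPM in control. Markers of ovary, Malpighian tubule, hemocytes and trachea each summed to under 20 CPM in every library, and those of fat body to at most 0.594 CPM in treatment and 4.02 CPM in control. Hindgut markers summed to 18.0 to 19.7 CPM in treatment and 34.8 to 38.9 CPM in control. No marker of the gut cell lists was at 0 reads, and the hemocyte marker He was at 0 in all 6 libraries. The part of these markers in the synthetase values was not tested. In bulk tissue, fewer cells of a type and less RNA per cell cannot be told apart.

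Cytosolic synthetase genes were read more deeply than mitochondrial ones. Levels that can be compared between genes are given as CPM divided by the length in kilobases of the most-read transcript (RPKM, TMM-scaled). Over all 6 libraries the cytosolic genes had a median of 26.4 RPKM, with a range of 11.5 to 135 RPKM. The mitochondrial genes had a median of 6.77 RPKM, with a range of 1.48 to 39.5 RPKM. Counts per gene and library ran from 356 to 5583 reads in the cytosolic class and from 39 to 1170 reads in the mitochondrial class. Standard errors (SE) of the log2 fold changes followed, at 0.043 to 0.068 for cytosolic and 0.058 to 0.18 for mitochondrial genes. A change of a given size was therefore easier to call in the cytosolic class.

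**Figure D1:**
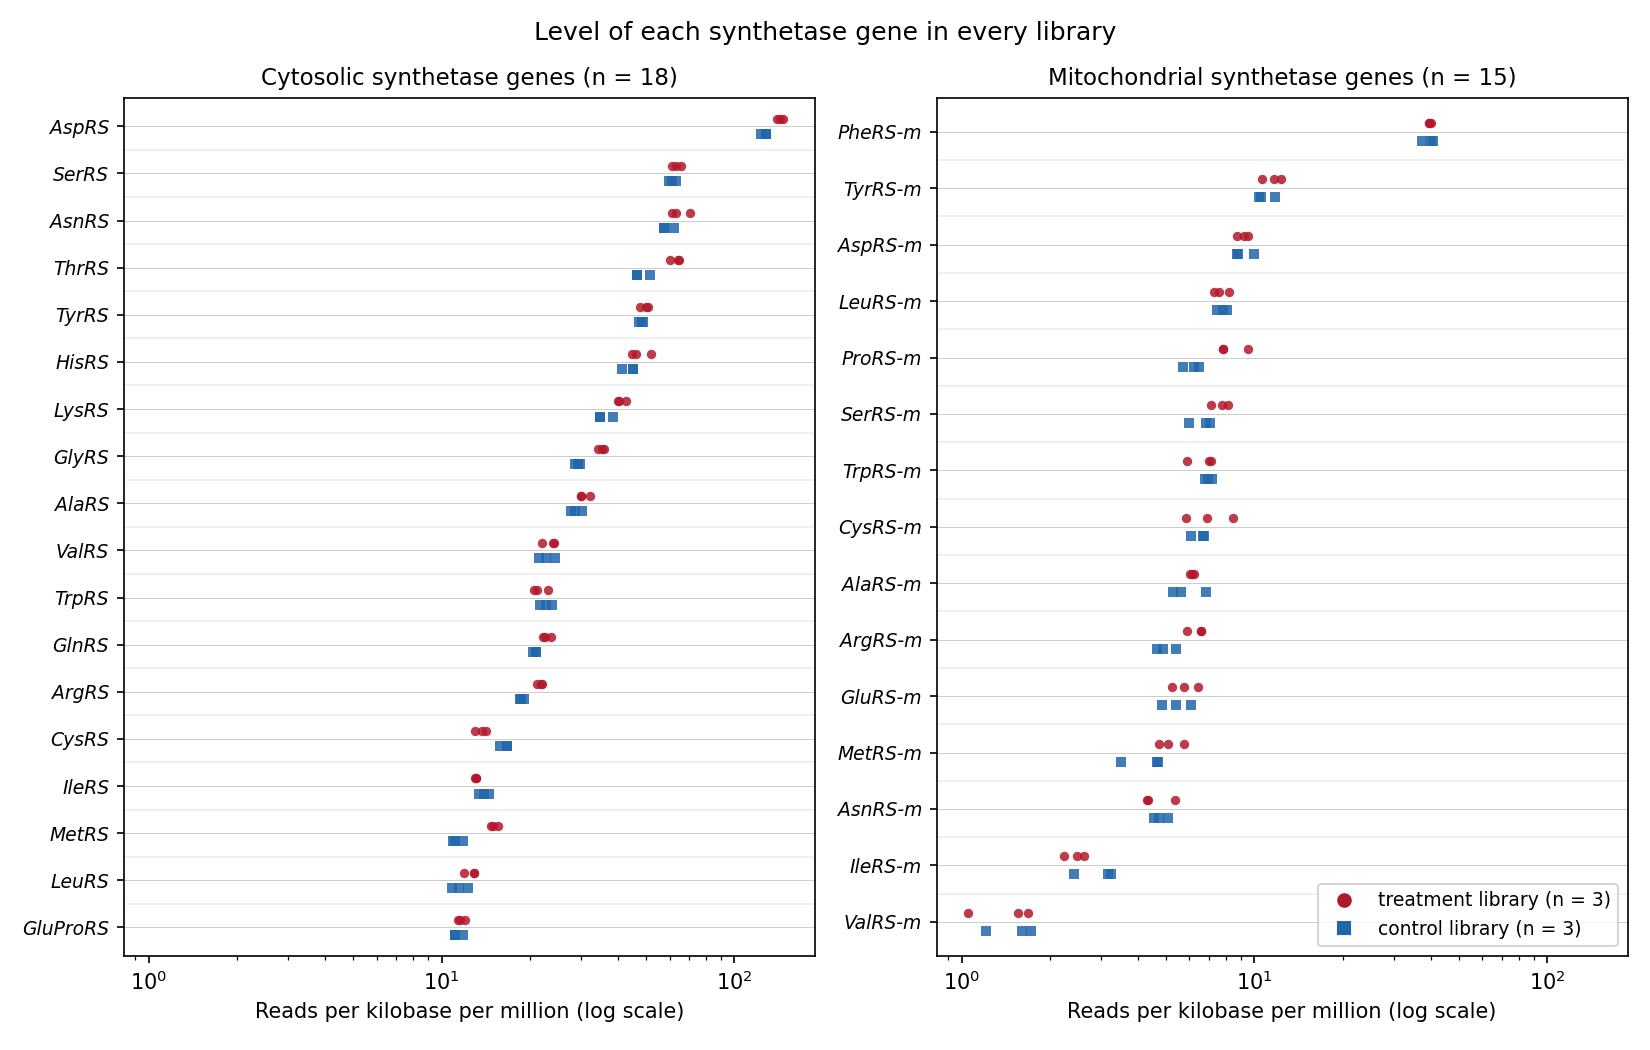
Level of each of the 18 cytosolic and 15 mitochondrial synthetase genes in every library, in RPKM on a log axis, with the 3 treatment libraries as circles above the 3 control libraries as squares. AspRS stands above the other cytosolic genes and PheRS-m above the other mitochondrial genes in both sets, and most genes show treatment and control points close together.

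AspRS, the aspartate enzyme, was the highest member at 143 ± 3.74 RPKM in treatment and 127 ± 2.61 RPKM in control (SD, n = 3 each). SerRS, which charges serine, came next at 63.3 ± 2.40 RPKM in treatment and 61.5 ± 1.63 RPKM in control. AsnRS, the asparagine enzyme, had 64.9 ± 5.09 RPKM in treatment and 59.0 ± 2.84 RPKM in control. SerRS and AsnRS lay within each other's spread, whereas AspRS was more than 2 times either of them. The lowest cytosolic level was that of GluProRS, an enzyme whose protein carries both the glutamate and the proline activity, at 11.7 ± 0.312 RPKM in treatment and 11.4 ± 0.404 RPKM in control. That level is over its 5415-base transcript, whose 5′ part held few of the reads, and its place as the lowest depends on this length.

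In the mitochondrial class PheRS-m, the phenylalanine enzyme, stood alone at 39.6 ± 0.477 RPKM in treatment and 39.4 ± 1.89 RPKM in control. TyrRS-m, for tyrosine, followed at 11.5 ± 0.864 RPKM in treatment and 10.9 ± 0.767 RPKM in control. AspRS-m, for aspartate, had 9.14 ± 0.391 RPKM in treatment and 9.16 ± 0.670 RPKM in control. In the mean over 6 libraries PheRS-m lay above 12 of the 18 cytosolic genes, and every other mitochondrial gene lay below the lowest cytosolic one. The lowest member of all was ValRS-m, for valine, at 1.43 ± 0.336 RPKM in treatment and 1.52 ± 0.271 RPKM in control.

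The question behind the comparison is which genes differ between the midguts of old and young flies. MetRS, ThrRS and GlyRS led the cytosolic genes that were higher in treatment, at 1.21 to 1.34 times the control level. ProRS-m and ArgRS-m were the mitochondrial genes that were higher, and CysRS was the member that was lower, at 0.827 times the control level. Among the 33 synthetase genes, 9 were higher in treatment, 1 was lower and 23 did not pass the test. The share of higher genes, 27.3%, was close to the 25.0% of all tested genes called higher, and the share of lower genes was 3.03% against 24.1% of all tested genes. The median log2 fold change was 0.091 over the members and 0.014 over all tested genes. All 3 treatment libraries lay above all 3 control libraries in 11 members, a share of 33.3% against 28.3% of all tested genes. They lay below in 2 members, a share of 6.06% against 26.9%. The members' changes were small, between -0.27 and 0.44 on the log2 scale.

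The scaling of the libraries bears on every one of these counts. With scaling by total reads alone, the median of all tested genes moved to a log2 fold change of 0.22. Under it 26 members were called higher and none lower, against 4127 higher and 1076 lower among all 8137 tested genes. Every total-read call below stands beside that larger background. Measured from the median of all genes, the cytosolic median was 0.11 and the mitochondrial median 0.028 under both scalings. A change of scaling moves all genes together, so this agreement was fixed in advance and is not a further result. For the same reason, members below the all-gene median under TMM stayed below it with total reads. Directions below are those with TMM scaling.

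**Figure D2:**
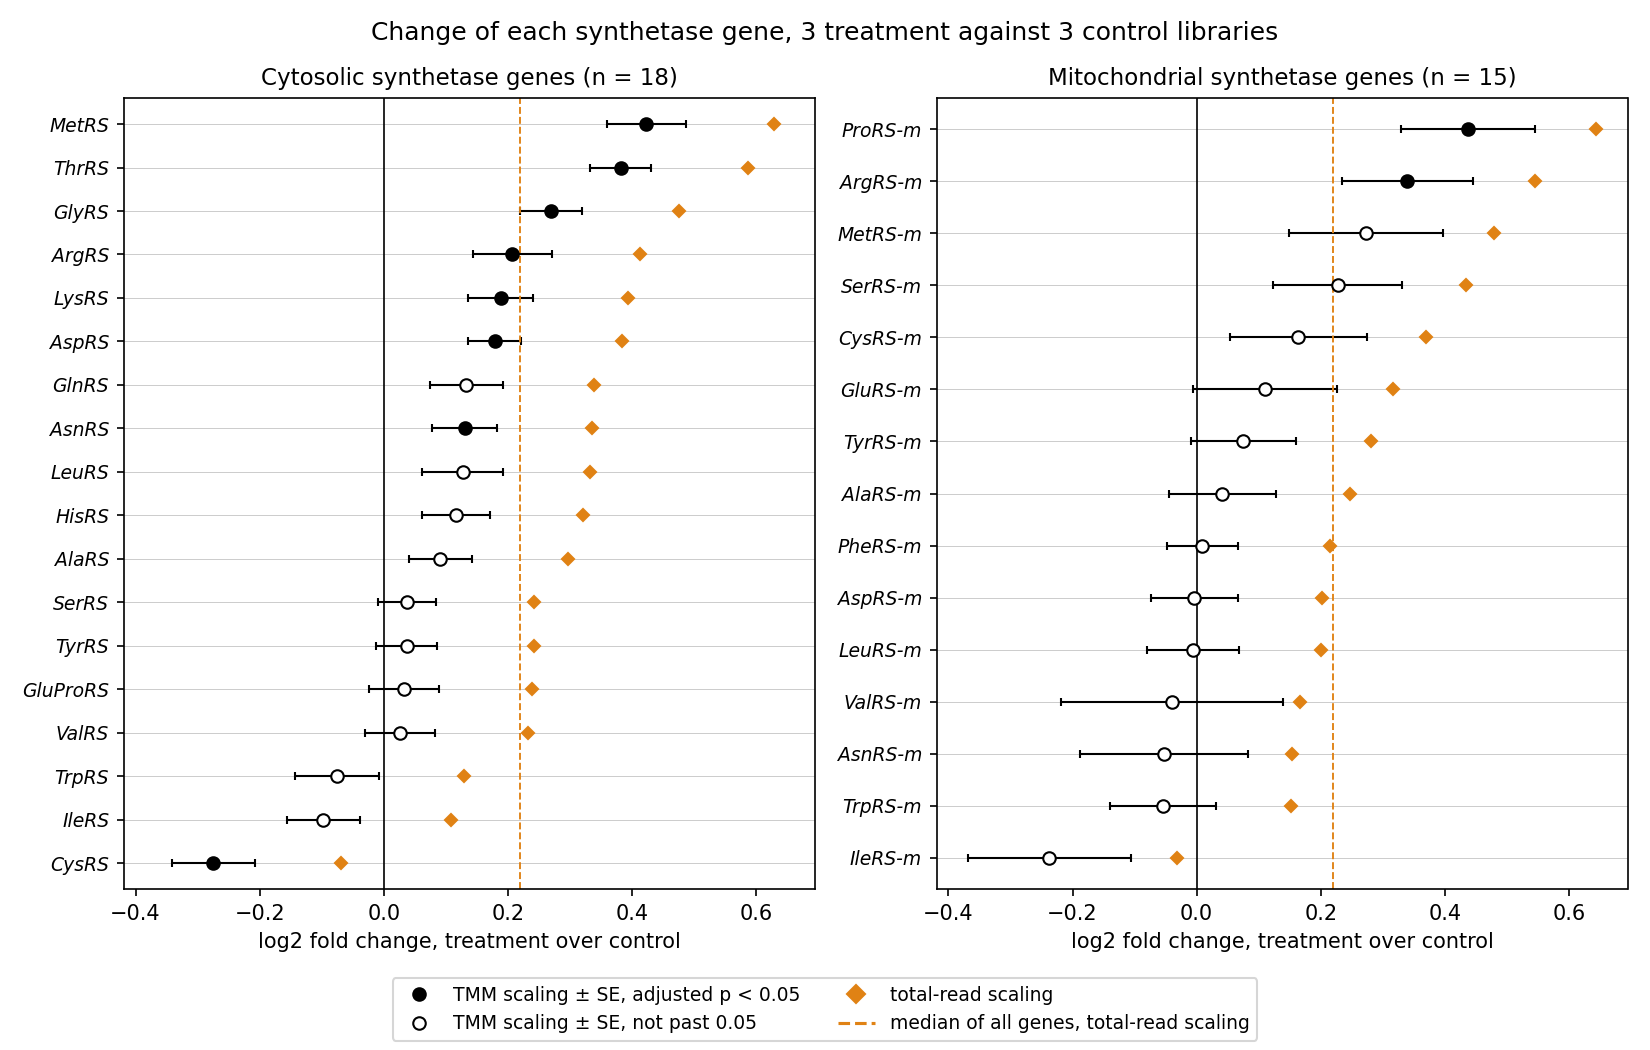
Log2 fold change of each synthetase gene, treatment over control, from 3 treatment and 3 control libraries. Black circles with SE bars use TMM scaling and are filled where the adjusted p is below 0.05, orange diamonds use total reads, and the dashed line marks the median of all tested genes under total-read scaling. MetRS and ThrRS lead the cytosolic genes, ProRS-m and ArgRS-m lead the mitochondrial genes, and CysRS is the filled point to the left of 0.

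Of the 18 cytosolic genes, 7 were higher in treatment and 1 was lower, shares of 38.9% and 5.56% beside 25.0% and 24.1% of all tested genes. A positive log2 fold change was found in 15. The class median was 0.12, with 0.065 without treatment replicate 2 and 0.070 without control replicate 3. The summed level of the class was 1591, 1667 and 1599 CPM in the treatment libraries, against 1464, 1523 and 1429 CPM in the control libraries. The sets did not overlap, and the ratio of their means was 1.10. As an unscaled share of the reads, the class took 0.173%, 0.178% and 0.171% in treatment, against 0.135%, 0.142% and 0.134% in control.

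The 8 members of the multi-synthetase complex, assigned by homology with the complex of other animals, held 4 of the 7 higher genes. The 10 other cytosolic genes held 3. MetRS, which charges the initiator as well as the elongator methionine tRNA, had 54.4, 51.4 and 52.3 CPM in treatment, against 38.8, 41.3 and 38.1 CPM in control. Every treatment value lay above every control value. The difference was 1.34-fold (log2 0.42, SE 0.063, adjusted p = 1.27e-06). MetRS lies on chromosome 2R at 14734363 to 14738184. Positions here are those of the deposited table, which names no genome build.

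AspRS, at 8767824 to 8770675 on chromosome 2R, had 285, 278 and 271 CPM in treatment, against 248, 249 and 240 CPM in control. The sets stood apart, at 1.13-fold (log2 0.18, SE 0.043, adjusted p = 0.000888). LysRS, for lysine, at 9500396 to 9502917 on chromosome X, had 88.9, 88.4 and 93.6 CPM in treatment, against 76.3, 84.7 and 76.3 CPM in control. Its control replicate 2 came closest to the treatment values, and the sets did not overlap (log2 0.19, SE 0.053, adjusted p = 0.00343). ArgRS, for arginine, at 15735796 to 15738169 on chromosome X, had 46.6, 46.8 and 45.2 CPM in treatment, against 39.6, 40.6 and 39.9 CPM in control. Its libraries were tight within each set, and treatment was 1.15-fold higher (log2 0.21, SE 0.063, adjusted p = 0.00683).

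The other complex members did not pass the test. GlnRS, for glutamine, had 55.5, 58.1 and 54.5 CPM in treatment, against 51.5, 51.5 and 50.2 CPM in control. All treatment values were above all control values, and the adjusted p was 0.0615 at a log2 fold change of 0.13 (SE 0.059). It passed with reads summed over transcripts (adjusted p = 0.0428). Its 2 transcripts had the same counts in every library, so that sum counted the same reads again and is no further result. IleRS, for isoleucine, had 50.8, 51.1 and 51.2 CPM in treatment, against 54.6, 56.5 and 52.5 CPM in control. This was the reverse arrangement, with all treatment values below (log2 -0.098, SE 0.059, adjusted p = 0.176), and with total reads the sign turned to 0.11. LeuRS, for leucine, had a log2 fold change of 0.13 and GluProRS of 0.033, with sets that overlapped. Without control replicate 2 LeuRS was called higher (log2 0.18, adjusted p = 0.0395). Over the 8 complex members the median was 0.16, with 4 higher and none lower. Over the 10 other cytosolic genes the median was 0.064, with 3 higher and 1 lower, and the difference between these groups was not tested.

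Among cytosolic enzymes outside the complex, ThrRS, which charges threonine, had 150, 160 and 160 CPM in treatment, against 116, 128 and 116 CPM in control. The 2 sets were well separated. The difference had the smallest p of the family (log2 0.38, SE 0.049, adjusted p = 7.24e-08). ThrRS lies on chromosome 2L at 12103786 to 12106894. GlyRS, for glycine, at 15088282 to 15090790 on chromosome 3L, had 88.9, 89.7 and 85.6 CPM in treatment, against 73.4, 74.3 and 71.5 CPM in control. It too showed no overlap (1.21-fold, log2 0.27, SE 0.050, adjusted p = 3.67e-05).

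AsnRS, at 19129862 to 19131960 on chromosome 2L, had 121, 140 and 125 CPM in treatment, against 114, 124 and 114 CPM in control. Here the sets overlapped, because treatment replicate 1 lay below control replicate 2. The call was the weakest of the family (log2 0.13, SE 0.053, adjusted p = 0.0394). It was lost without treatment replicate 2 (adjusted p = 0.287), without control replicate 1 (adjusted p = 0.176), without control replicate 3 (adjusted p = 0.159), with reads summed over transcripts (adjusted p = 0.0856) and in DESeq2 (adjusted p = 0.132). Over the fits that each left out a library, its adjusted p ran from 0.00629 to 0.287.

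CysRS, which charges cysteine, was the member that was lower in treatment. It had 32.0, 34.9 and 33.7 CPM in treatment, against 41.2, 39.0 and 41.1 CPM in control. The highest treatment value lay below the lowest control value (log2 -0.27, SE 0.067, adjusted p = 0.000953). The call held in each fit that left out a library, and with total reads CysRS was no longer called (log2 -0.069, adjusted p = 0.37). Measured from the median of all genes, its difference was -0.29 under both scalings, which follows from a shift common to all genes. CysRS lies on chromosome 2R at 12030655 to 12033415.

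SerRS, with the second highest level per length, had 117, 126 and 120 CPM in treatment, against 117, 121 and 115 CPM in control. The sets overlapped almost fully (log2 0.037, SE 0.047, adjusted p = 0.539). TyrRS, for tyrosine, had a log2 fold change of 0.037, ValRS, for valine, of 0.026 and TrpRS, for tryptophan, of -0.076, the last turning to 0.13 with total reads. HisRS, for histidine, had a log2 fold change of 0.12 (adjusted p = 0.0766) and AlaRS, for alanine, of 0.091 (adjusted p = 0.135). None of these 6 genes passed in the fit of all 6 libraries with TMM scaling. All but TrpRS passed as higher with total reads, where 4127 of all 8137 tested genes did. HisRS passed without treatment replicate 1 (adjusted p = 0.0308) and without control replicate 2 (adjusted p = 0.0448), and AlaRS passed without control replicate 2 (adjusted p = 0.0353).

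Of the 15 mitochondrial genes, 2 were higher in treatment and none was lower, shares of 13.3% and 0% beside 25.0% and 24.1% of all tested genes. A positive log2 fold change was found in 9. At an unadjusted p under 0.05 there were 4 of the 15, all of them positive, and 10 of the 18 in the cytosolic class. These counts stand beside 4465 of all 8137 tested genes at that threshold. The class median was 0.042 (log2). The summed level was 265, 258 and 253 CPM in treatment, against 251, 260 and 236 CPM in control. These sums overlapped, and the ratio of their means was 1.04. Without control replicate 3 the class median was -0.012, and IleRS-m was then called lower (log2 -0.37, adjusted p = 0.0242). DESeq2 also called no mitochondrial gene lower, and it called 1 higher, beside 1724 lower and 1599 higher among all 8137 genes.

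ProRS-m, the mitochondrial proline enzyme, had 11.7, 14.2 and 11.6 CPM in treatment, against 9.64, 9.29 and 8.52 CPM in control. All treatment values were above all control values, with treatment replicate 2 the highest. The difference was 1.35-fold (log2 0.44, SE 0.11, adjusted p = 0.00109), and its gap to the value of MetRS was smaller than its SE. It lies on chromosome 3L at 2650161 to 2651834, and 45 of its bases overlap CG1246 on the opposite strand. CG1246 had 44.8 times as many reads and a log2 fold change of 0.021 (adjusted p = 0.715).

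ArgRS-m, for arginine, had 11.1, 12.5 and 12.5 CPM in treatment, against 10.3, 8.84 and 9.26 CPM in control. The sets did not overlap, although treatment replicate 1 and control replicate 1 were close. Treatment was 1.26-fold higher (log2 0.34, SE 0.11, adjusted p = 0.00789), and in DESeq2 the adjusted p was 0.0513. Over all alternatives it ran from 4.92e-05 to that value. ArgRS-m lies on chromosome 3R at 3712806 to 3715058 and shares 62 bases with mRpS9 on the opposite strand. That neighbour had 4.83 times as many reads and a log2 fold change of 0.069 (adjusted p = 0.394).

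The 3 highest mitochondrial genes per length did not pass. PheRS-m had 59.8, 58.6 and 58.5 CPM in treatment, against 59.8, 60.7 and 55.5 CPM in control (log2 0.0093, SE 0.058, adjusted p = 0.911). TyrRS-m had 17.9, 19.0 and 16.4 CPM in treatment, against 16.0, 18.1 and 16.2 CPM in control (log2 0.076, SE 0.084, adjusted p = 0.484). AspRS-m had 35.8, 33.8 and 36.8 CPM in treatment, against 33.8, 38.5 and 34.2 CPM in control (log2 -0.0038, SE 0.070, adjusted p = 0.971). In all 3 genes the sets overlapped.

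MetRS-m, for methionine, and SerRS-m, for serine, had sets that did not overlap and yet missed the threshold. MetRS-m had 9.45, 10.7 and 8.82 CPM in treatment, against 8.66, 8.71 and 6.54 CPM in control (log2 0.27, SE 0.12, adjusted p = 0.0699). It was called higher without control replicate 2 (log2 0.36, adjusted p = 0.0302) and stood at 0.13 without control replicate 3. SerRS-m had 12.5, 10.9 and 11.9 CPM in treatment, against 10.8, 10.5 and 9.20 CPM in control (log2 0.23, SE 0.10, adjusted p = 0.0703). The whole 1533-base span of SerRS-m, on chromosome 3R at 11166407 to 11167939, lies inside Nagk on the opposite strand. Nagk had 11.3 times as many reads and was itself higher in treatment (log2 0.32, adjusted p = 8.98e-07). How the deposited counts treated strand is not given in the sources used here, so reads of the pair cannot be told apart.

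In the deposited coordinates 11 members overlapped a neighbouring locus, 9 of them mitochondrial and 2 cytosolic, always on the opposite strand. Apart from SerRS-m the overlaps were 5 to 98 bases long. The longest of these was between GluRS-m, with 784 reads, and Serinc, with 10921 reads. Serinc had a log2 fold change of 0.12 (adjusted p = 0.0347). With the strand setting not given, reads over shared bases cannot be assigned in any of these members, ProRS-m and ArgRS-m included.

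Among the remaining mitochondrial genes, IleRS-m, for isoleucine, had the most negative log2 fold change of the class, at -0.24 (SE 0.13, adjusted p = 0.136). CysRS-m, for cysteine, stood at 0.16 and GluRS-m, for glutamate, at 0.11. AlaRS-m, for alanine, stood at 0.042, and ValRS-m at -0.040 with the widest SE of the family, 0.18. LeuRS-m, for leucine, had -0.0054, AsnRS-m, for asparagine, -0.053, and TrpRS-m, for tryptophan, -0.054. The signs of the cytosolic TrpRS, IleRS and ValRS and of PheRS-m, AspRS-m, LeuRS-m, TrpRS-m, CysRS-m, AlaRS-m, AsnRS-m and ValRS-m each turned in at least 1 alternative, and the counts of positive values above include such genes.

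For 12 amino acids the table holds a cytosolic gene and a mitochondrial gene of its own, and the cytosolic gene had the higher level per length in 12 of 12. The ratio had a median of 4.65. It was lowest for leucine at 1.56 and highest for valine at 15.9. Glycine, histidine, lysine, threonine and glutamine had a cytosolic gene alone, and the glycine and lysine genes of animals are known to encode both forms of the enzyme. The counts and sums of the class called cytosolic therefore include genes that may serve both compartments, GlyRS and LysRS among them. Whether HisRS and ThrRS also encode both forms was not tested. Mitochondrial glutamine tRNA is in many organisms charged with glutamate first and then converted by an amidotransferase.

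**Figure D3:**
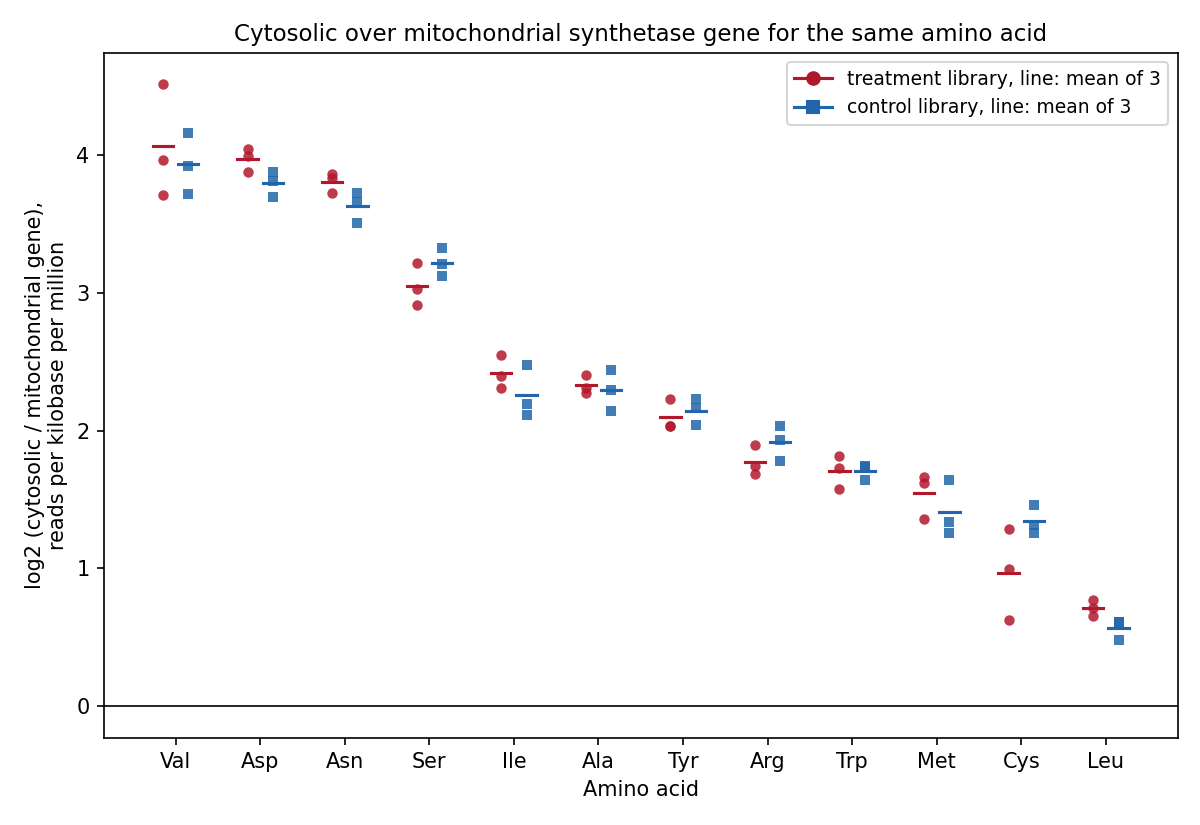
Log2 ratio of the cytosolic over the mitochondrial gene for the same amino acid, from RPKM, for 12 amino acids in 3 treatment libraries (circles, left) and 3 control libraries (squares, right), with lines at the means. All points lie above 0, from valine, aspartate and asparagine at the top to leucine at the bottom, and the sets stay close for most pairs.

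The balance between the 2 forms differed little between the sets. The mean log2 ratio of the pair differed between treatment and control by a median of 0.083 over the 12 pairs, with 7 pairs positive. For aspartate the ratio was 3.99, 4.04 and 3.88 on the log2 scale in treatment, against 3.87, 3.69 and 3.81 in control. For asparagine it was 3.83, 3.7225 and 3.86 in treatment, against 3.50, 3.7206 and 3.65 in control, so that the sets nearly touched. Leucine gave 0.65, 0.77 and 0.71 in treatment, against 0.61, 0.61 and 0.48 in control. In these 3 pairs the sets did not overlap and the ratio was higher in treatment, and in the other 9 the sets overlapped. For cysteine the log2 ratio was 0.63, 1.29 and 0.996 in treatment, against 1.31, 1.25 and 1.46 in control. Its mean difference of -0.37 was the most negative of the 12, and treatment replicate 2 fell among the control values. GluProRS stands against a mitochondrial gene for each of its activities and is counted in no pair. Its log2 ratio to ProRS-m was 0.56, 0.33 and 0.55 in treatment, against 0.79, 0.93 and 0.96 in control. These sets did not overlap, and the mean difference was -0.41, whereas the ratio to GluRS-m differed by -0.059 with sets that overlapped. Summed over all members, the cytosolic level per length was 5.15, 5.49 and 5.41 times the mitochondrial level in treatment, against 5.00, 5.09 and 5.26 times in control. These sets overlapped. The ratio within a library does not depend on how libraries are scaled.

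Some genes of the same machinery have names the rule leaves out. The cytosolic phenylalanine enzyme is built of an alpha and a beta subunit. Its alpha subunit gene, alpha-PheRS, had 54.8 ± 3.09 CPM in treatment and 48.4 ± 2.17 CPM in control (log2 0.17, SE 0.063, adjusted p = 0.023), and in DESeq2 the adjusted p was 0.0791. Of the 3 genes alpha-PheRS, beta-PheRS and Slimp, 2 were called higher, a share of 66.7% beside 25.0% of all tested genes. The count was 1 without treatment replicate 2, treatment replicate 3, control replicate 1 or control replicate 3. The beta subunit gene, beta-PheRS, had 43.2 ± 1.12 CPM in treatment and 43.6 ± 1.57 CPM in control (log2 -0.011, adjusted p = 0.901), and with total reads it was called higher at 0.19. Slimp is a mitochondrial relative of the seryl-tRNA synthetase that in *Drosophila* has lost the charging activity. It had 13.4 ± 0.692 CPM in treatment and 9.90 ± 1.65 CPM in control, a log2 fold change of 0.45 (SE 0.11, adjusted p = 0.00104). The scaffold genes of the complex did not pass. AIMP1, AIMP2 and AIMP3 had log2 fold changes of 0.086, -0.00020 and 0.060. With total reads all 3 were called higher, as were 4127 of all 8137 tested genes.

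GluProRS had a long transcript of 5415 bases and a short one of 3157 bases that lies within it at the 3′ end of the gene. Reads outside the short transcript were 94, 53 and 52 in treatment, against 66, 110 and 96 in control. They made up a mean of 7.60% of the reads of the long transcript in treatment and 10.5% in control. Every treatment share was below every control share. The stretch outside the short transcript is 41.7% of the length but held 9.10% of the reads, so its read density was 0.14 times that of the short transcript. Low density outside the shorter form was common. Among 202 loci with such a nested pair the median density ratio was 0.196, and 79 were as low as GluProRS or lower. In 38 of the 202 loci all treatment shares were below all control shares, and in 21 all were above.

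Once charged, a tRNA is carried to the ribosome by an elongation factor. Of 7 tested cytosolic elongation factor genes, 4 were lower in treatment and none higher, in edgeR and in DESeq2, with a list median of -0.15. The shares in edgeR were 57.1% lower and 0% higher, beside 24.1% and 25.0% of all tested genes. In DESeq2 the background was 1724 lower and 1599 higher among 8137 genes. At an unadjusted p below 0.05 no gene of this list was higher in edgeR either. With total reads 1 was lower and 2 were higher, at a median of 0.051. eEF1alpha1, which delivers the charged tRNA, had 4920 ± 103 CPM in treatment and 6438 ± 68.3 CPM in control (log2 -0.39, adjusted p = 4.14e-08), and it stayed lower with total reads (log2 -0.18, adjusted p = 0.000609). eEF2, the translocation factor, had 2047 ± 75.7 CPM in treatment and 2467 ± 82.9 CPM in control (log2 -0.27, adjusted p = 1.6e-05), and with total reads it was no longer called (adjusted p = 0.188). eEF5, which helps the ribosome form difficult peptide bonds, had a log2 fold change of -0.15 (adjusted p = 0.00476), a sign that turned to 0.051 with total reads. Without treatment replicate 1 the list held 2 lower genes.

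In mitochondria the charged tRNAs meet a ribosome with its own set of proteins, all encoded in the nucleus. Of 73 mitochondrial ribosomal protein genes, 35 were higher and 2 lower, with a median log2 fold change of 0.19. The share called higher was 47.9%, beside the 25.0% over all genes. DESeq2 called 22 higher and 2 lower, beside 1599 higher and 1724 lower among all 8137 genes. With total reads 66 were higher and 1 lower, where 4127 of all 8137 tested genes were higher. mRpL1, of the large subunit, had 50.3 ± 0.966 CPM in treatment and 37.5 ± 1.51 CPM in control (log2 0.42, adjusted p = 1.61e-06). mRpL3 had 48.0 ± 1.42 CPM in treatment and 35.9 ± 1.34 CPM in control (log2 0.42, adjusted p = 1.96e-06). The 2 genes called lower, named here after their values were seen, are loci whose symbols are merged with a neighbour, mRpS10/CG34316 and mRpL13/CG10602. Of 11 genes for mitochondrial translation factors, the amidotransferase and the ribosomal protein bonsai, 3 were higher and 1 lower, with a median of 0.057. The share of higher genes, 27.3%, was close to the 25.0% over all genes, and the share of lower genes was 9.09% beside 24.1%. bonsai, a ribosomal protein gene of the small subunit, had the smallest p among them (log2 0.23, adjusted p = 0.00433). mEFTu1, which delivers charged tRNA in mitochondria, had 176 ± 8.46 CPM in treatment and 161 ± 3.50 CPM in control (log2 0.12, adjusted p = 0.0292), a call lost in DESeq2 (adjusted p = 0.101). Without control replicate 3 none of the 11 was higher and 1 lower, and without treatment replicate 2 it was 1 higher and none lower. DESeq2 called bonsai alone higher (adjusted p = 0.0194) and none lower.

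Uncharged tRNA activates the kinase Gcn2, and the transcription factor ATF4, encoded in flies by crc, then drives genes of amino acid metabolism that in animals include synthetases. The list for this pathway mixes its regulators, such as Gcn2, crc and eIF2alpha, with metabolic genes. Its counts are therefore not counts of ATF4 targets alone. Of its 13 tested genes, 2 were higher and 7 lower, shares of 15.4% and 53.8% beside 25.0% and 24.1% of all tested genes, with a median of -0.16. With total reads 4 were higher and 4 lower, at a median of 0.043. aay, a phosphatase of serine synthesis, had 47.4 ± 1.15 CPM in treatment and 102 ± 1.69 CPM in control (log2 -1.10, adjusted p = 6.98e-18). Sesn, which restrains TOR signalling, had 46.3 ± 3.32 CPM in treatment and 79.7 ± 2.43 CPM in control (log2 -0.78, adjusted p = 7.76e-13). Thor, the fly 4E-BP, had 268 ± 2.16 CPM in treatment and 386 ± 22.0 CPM in control (log2 -0.52, adjusted p = 2.13e-11). These 3 stayed lower with total reads. crc itself had a log2 fold change of -0.11 (adjusted p = 0.0424), a sign that turned to 0.092 with total reads, and Gcn2 did not pass (log2 -0.21, adjusted p = 0.135). In the other direction, Nmdmc and Shmt were called higher in DESeq2 (log2 0.33 and 0.22, adjusted p = 0.00496 and 0.00287). Both were also called higher with total reads (log2 0.55 and 0.43). Fits that each left out a library called 2 higher and 5 to 8 lower.

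The authors' deposited table of gene results listed 10 of the 33 members, with log2 fold changes whose direction is not described for it. In the authors' deposited table MetRS had a log2 fold change of 0.40, ThrRS of 0.37, ProRS-m of 0.47 and CysRS of -0.26. Of the 10 listed members in the authors' deposited table, 8 had a positive and 1 a negative value at an adjusted p below 0.05. The tenth, GlnRS, had 0.12 with an adjusted p of 0.073 in the authors' deposited table, the largest of the 10. No share over all genes of that table was worked out, so the counts of 8 and 1 are not a further result. AsnRS, called higher by edgeR here, was not among the 10.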

How the data were processed

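Raw read counts per transcript were deposited by the authors in 6 columns, and transcript lengths, the sum of exon lengths in bases, were given per the file headers. No aligner, genome build, strand setting or counting rule is stated in the labels or headers. The authors' deposited gene table gives log2 fold changes with standard errors and adjusted p-values, and DESeq is named per the submitters' processing notes. The 6 normalized per-sample columns were not used.

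Of 24047 transcripts, 145 predicted ones were left out, and each locus was represented by its most-read transcript because transcripts of a gene share reads. Names came from the Release 6 RefSeq gene table by NCBI gene ID. After 6 loci with a symbol already taken were dropped, 13816 genes remained. edgeR 4.0.16 (R 4.3.3) scaled them by TMM, kept 8137 genes by filterByExpr (minimum count 10) and compared the 3 treatment with the 3 control libraries by its quasi-likelihood test, adjusting p-values after Benjamini and Hochberg over these genes (threshold 0.05). An adjusted p comes from edgeR unless DESeq2 (1.42.0) is named. CPM and RPKM are TMM-scaled and shown as mean ± SD. The GluProRS comparison used loci whose short transcript is 40 to 75% as long as the long one, with at least 300 reads. Fits were tested on simulated counts. Chi-square per degree of freedom between replicates was 2.45 to 7.64, so no pair of libraries agreed within sampling noise. Figures were drawn with matplotlib 3.10.9.

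The members and lists were chosen with earlier results of these data known. Per-library values were given for each member called and the 3 highest per length in each class, and up to 3 called genes of each companion list. Other members were added where sets did not overlap. The genes crc, Gcn2, Nmdmc, Shmt, Myc, path, beta-PheRS, the AIMP genes and genes at 0 reads were named after their values were seen. A search of promoters for motifs, planned at the start, was not run.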

Additional observations from a re-analysis of the deposited data

How the results depend on the processing

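The 9 member calls other than AsnRS were made in the fit of all 6 libraries and in each fit without 1 library. Over all 8137 genes DESeq2 called 1599 higher and 1724 lower. DESeq2 called 8 members, losing ArgRS-m and AsnRS, with 1 mitochondrial gene higher. It gave PheRS-m a log2 fold change of -0.0018. Total-read scaling gave 15 cytosolic genes higher, 0 lower and a class median of 0.33, and 11 mitochondrial genes higher with a median of 0.25. Over all genes it gave 4127 higher and 1076 lower. By its construction it moves all genes together. It turned the signs of TrpRS (0.13), IleRS (0.11), AspRS-m (0.20), LeuRS-m (0.20), TrpRS-m (0.15), AsnRS-m (0.15) and ValRS-m (0.17). Without the filter on low counts the 10 member calls were the same genes. Summing over transcripts lost AsnRS, gained GlnRS (adjusted p = 0.0428) and put AspRS-m at 0.0016. The sum counts reads shared by the transcripts of a gene more than once, and for GlnRS these were all its reads.

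Replicates with the same number did not deviate together, with correlations of 0.0090, 0.093 and 0.021, so the numbers were not taken as pairs. With the replicate number as a block, 12 members were called, GlnRS (adjusted p = 0.0435) and HisRS (adjusted p = 0.0372) being added, and all genes gave 2106 higher and 2010 lower. The block put AspRS-m at 0.0023. Not every library correlated best with its own number.

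Leaving out each library in turn gave 6 to 10 cytosolic genes higher and 1 lower, with a class median of 0.065 (without treatment replicate 2) to 0.14. It gave 2 to 3 mitochondrial genes higher and 0 to 1 lower, the 1 being IleRS-m without control replicate 3, with a median of -0.012 to 0.066. Without treatment replicate 1, 1829 of all 8116 tested genes were higher and 1735 lower. Without treatment replicate 2 it was 1917 and 1892 of 8255, and without treatment replicate 3, 1865 and 1831 of 8268. Without control replicate 1 it was 1830 and 1927 of 8262. Signs turned within these ranges of log2 fold change: ValRS -0.027 to 0.080, PheRS-m -0.041 to 0.041, AspRS-m -0.045 to 0.066, LeuRS-m -0.067 to 0.033, TrpRS-m -0.12 to 0.021, CysRS-m -0.022 to 0.27, AlaRS-m -0.036 to 0.17, AsnRS-m -0.14 to 0.019 and ValRS-m -0.22 to 0.12. Apart from total-read scaling, the causes of these moves were not tested. Depth was lowest for ValRS-m, down to 39 reads in a library, and its SE was the widest of the family.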

Other observations

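Amino acids reach the synthetases through transporters, and 11 of 13 listed transporter genes were tested. Of these, 4 were higher in treatment and 5 lower, shares of 36.4% and 45.5% beside 25.0% and 24.1% of all tested genes. NAAT1, a nutrient amino acid transporter of the gut, had 78.3 ± 1.72 CPM in treatment and 388 ± 5.46 CPM in control (log2 -2.31, adjusted p = 9.71e-28). sbm had 41.5 ± 1.47 CPM in treatment and 143 ± 7.83 CPM in control (log2 -1.79, adjusted p = 4.04e-23). slif, a cationic amino acid transporter, had 100.2 ± 5.67 CPM in treatment and 251 ± 4.42 CPM in control (log2 -1.33, adjusted p = 2.8e-21). path, another amino acid transporter, had a log2 fold change of 0.61 (adjusted p = 4.07e-11). Each of these 4 kept its direction and its call with total reads. CG12531 was at 0 reads in all 6 libraries.

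A list of 11 genes held genes of Myc and TOR signalling, which control ribosome production and growth, and also mip120 of the dREAM complex. Of the 11, 2 were higher in treatment, mip120 being 1 of them, and 3 lower, with a median log2 fold change of -0.074. The shares, 18.2% and 27.3%, were near the 25.0% and 24.1% of all tested genes. The median was -0.035 without control replicate 2 and -0.13 without control replicate 1. With total reads 5 were higher and none lower, at a median of 0.13. Myc had 59.7 ± 2.44 CPM in treatment and 58.4 ± 8.64 CPM in control (log2 0.021, adjusted p = 0.837). Rheb, the GTPase that activates TOR, had 90.9 ± 2.94 CPM in treatment and 108 ± 1.64 CPM in control (log2 -0.24, adjusted p = 6.48e-05), a call lost with total reads (adjusted p = 0.484). mip120, which encodes a subunit of the dREAM complex (log2 0.40, adjusted p = 0.00223) and Mnt, a partner of Max that opposes Myc (log2 0.24, adjusted p = 0.00318), were higher under both scalings.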
